A study of Homo sapiens with 64 samples.

Results

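The histone genes H2BC5, H2BC4, H2BC12, H2BC21, H2AC6, H1-2 and H2AJ are 7 of the 54127 genes counted in 64 RNA sequencing libraries of human colorectal cancer spheroids. They were found by symbol through their Ensembl identifiers and were chosen by name with earlier results of these libraries known, so the contrast between label-retaining cells (LRCs) and non-LRCs, which was in view, is described here without a test. Spheroids were grown without serum and without attachment, in medium with EGF and bFGF. Established lines HT55, SW948, RKO, SW48, DLD1 and HCT15 were loaded with CFSE, a dye whose content per cell drops as cells divide, and were sorted on day 6 into LRCs (CFSE high) and the cycling bulk (non-LRCs), with 4 libraries of each population per line (48 libraries). The other 16 libraries were unsorted DLD1 controls, 4 each of cells with CFSE or without it (unlabeled) on day 1 or on the later day, which the labels call day 5 and the design text day 6; the labels' day 5 is used below. Each line stands for a single tumor, and no label says whether any of the lines share a donor. The 6 lines may thus be fewer than 6 independent tumors. The paper describes its experiments as done in biological quadruplicate. Whether the 4 libraries of a group came from separate cultures is not labelled. The p-values thus measure the spread between libraries, part of which may be technical. In sorted DLD1 and HCT15 and the CFSE controls, libraries 1 and 2 were alike, as were 3 and 4. There the 4 libraries may amount to fewer separate units.

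Histones H2A, H2B, H3 and H4 form the core of the nucleosome, and linker histones of the H1 family bind where DNA enters and leaves it. Most histone genes lie in clusters, are transcribed mainly in S phase and give mRNAs without introns that end in a conserved stem-loop in place of a poly(A) tail. A few cluster genes can also be read through to a downstream poly(A) signal, and replacement genes such as H2AJ, an H2A variant known to accumulate in senescent cells, give polyadenylated mRNA outside S phase. H1-2 encodes a widely expressed linker histone, H2AC6 an H2A, and the H2BC genes encode H2B proteins that differ little from each other.

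The stem-loop decides by which end a histone mRNA can be captured, and it is therefore shown for the 6 members that have it. Each line gives 24 bases read 5′ to 3′ on the gene's strand, in GRCh37, the same assembly as the hg19 build of the counts, with the 16 bases of the stem-loop in capitals.
H2BC5, chr6:26158811-26158834 (+): caaaGGCTCTTTTAAGAGCCacgc
H2BC4, chr6:26123696-26123719 (-): caaaGGCTCTTTTAAGAGCCaccc
H2BC12, chr6:27114141-27114164 (-): caaaGGCTCTTTTAAGAGCCactt
H2BC21, chr1:149857734-149857757 (-): caaaGGCTCTTTTCAGAGCCaccc
H2AC6, chr6:26124893-26124916 (+): caaaGGCTCTTTTCAGAGCCcccc
H1-2, chr6:26055968-26055991 (-): aaaaGGCTCTTTTCAGAGCCacca
The stem was the same in all 6 genes and the loop took 1 of 2 forms. Of 19833 protein-coding genes in GENCODE v44lift37, 70 (0.353%) had such a stem-loop in a protein-coding transcript, and 62 of these carry a histone symbol. It was not found in the transcripts of H2AJ (chr12:14927339-14930936, +), whose coding transcript ends with a poly(A) signal, AATAAA or ATTAAA, within its last 50 bases.

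The annotation matched the name "polyadenylated" for only a part of the group. H2BC5 and H2BC4 each had 2 coding transcripts, an unspliced one of 486 and 460 bases that ends 5 bases after the stem-loop and a spliced one of 789 and 659 bases that lacks it and ends at a poly(A) signal. H2BC21 had a single unspliced transcript of 2224 bases, which runs 1729 bases past its stem-loop to a poly(A) signal. H2AC6 had an unspliced transcript that ends 6 bases after the stem-loop and spliced ones that extend to 1462 and 1668 bases, of which the longer, annotated as a target of nonsense-mediated decay, ends at a poly(A) signal. H2BC12 (chr6:27114140-27114634, -) and H1-2 (chr6:26055968-26056698, -) had only the unspliced form that ends at the stem-loop. The sources used here do not say whether polyadenylated RNA was selected, and a count per gene does not separate the forms.

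Similar copies and overlapping genes make some of these counts uncertain. Of the 50-base windows of the annotated transcripts, the length of a read, 57.2% in H2BC12 also occurred in transcripts of another gene, mainly the near-copy H2BC12L, against 26.3% in H2BC4, 8.0% in H2BC21, 5.43% in H2BC5, 0.42% in H2AC6 and none of the 682 windows in H1-2 or the 3331 in H2AJ. The H2BC4 gene (chr6:26086545-26124154, -) also overlaps HFE and H4C3 on the other strand in this annotation, and whether reads were counted by strand is not given. In the 64 libraries the reads counted ranged from 39 to 973 for H2BC5, 7 to 144 for H2BC4, 142 to 1612 for H2BC12, 74 to 2127 for H2BC21, 55 to 1443 for H2AC6 and 94 to 2000 for H1-2, so H2BC4 is the least precise of these 6. H2AJ ranged from 0 to 2520.

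H2BC4 and H2AC6 start on opposite strands from a common region. The 218 bases between the 2 annotated genes, chr6:26124155-26124372 on the plus strand of GRCh37, are shown because these 2 members share them, with matches to CCAAT (either strand) and the octamer ATTTGCAT (either strand) in capitals.
H2BC4-H2AC6: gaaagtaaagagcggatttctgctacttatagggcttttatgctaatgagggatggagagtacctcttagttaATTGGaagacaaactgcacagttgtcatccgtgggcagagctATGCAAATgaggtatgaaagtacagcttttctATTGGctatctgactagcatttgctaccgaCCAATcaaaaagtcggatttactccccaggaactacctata
The region held 3 CCAAT matches and 1 octamer match, and none to TATAAA, the third motif searched. It stops at the annotated gene starts, so a match across or beyond them was not counted. Among 35116 RefSeq promoters (GRCh38.p14), the 218 bases before the start held CCAAT in 29.5%, the octamer in 1.43% and TATAAA in 9.41%. Over the full promoter of 300 bases, CCAAT was present in all 7 members (34.6% of all promoters), TATAAA in 5 (11.5%), namely H2BC4, H2BC5, H2BC12, H2BC21 and H2AC6, and the octamer in 4 (1.77%), the same genes without H2BC5.

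Between 12237225 and 20913455 reads (median 15063858) fell on genes in a library, and values are CPM (counts scaled to a common library size), normalized by TMM over all 64 libraries. Several libraries stood apart. The library labelled unlabeled day 1 replicate 4 correlated more with unlabeled day 5 replicate 3 (r = 0.996) than with any other unlabeled day 1 library (at most 0.974), on log2 values across genes. In the sorted series the nearest library carried the other label for 2 of 8 in HT55, 2 of 8 in SW48 and 3 of 8 in SW948, which centre on replicate 2 of HT55, replicate 2 of SW48 and the library labelled SW948 LRC replicate 4. Leaving out these 5 sorted libraries or the unlabeled day 1 library is given beside the results that rest on them, as a choice made after seeing the data. Of 10 colorectal epithelial markers, 4 to 10 had a group mean of at least 1 CPM, and of 9 blood, stromal and endothelial markers 1 to 4 did, with CD3E at 0 counts in all 64 libraries and the lysozyme gene LYZ the highest at up to 1651 CPM.

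In LRCs the 6 members other than H2AJ had higher levels than in non-LRCs in each of the 6 lines, and the size differed among lines. Over all 39 combinations of a member and a line in which it was measured, the fitted difference was positive in 39, the LRC library was the higher one in 139 of 156 same-numbered pairs, and in 14 every LRC library lay above every non-LRC library. Those 14 were 6 of 6 members in DLD1, where 8.86% of all genes did so, 4 of 6 in RKO (19.2%), 2 of 7 in SW48 (4.82%), 1 of 6 in HCT15 (5.22%), 1 of 7 in HT55 (1.79%) and 0 of 7 in SW948 (2.69%). Since the members were chosen with this contrast in view, nothing is read from these counts.

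**Figure D1:**
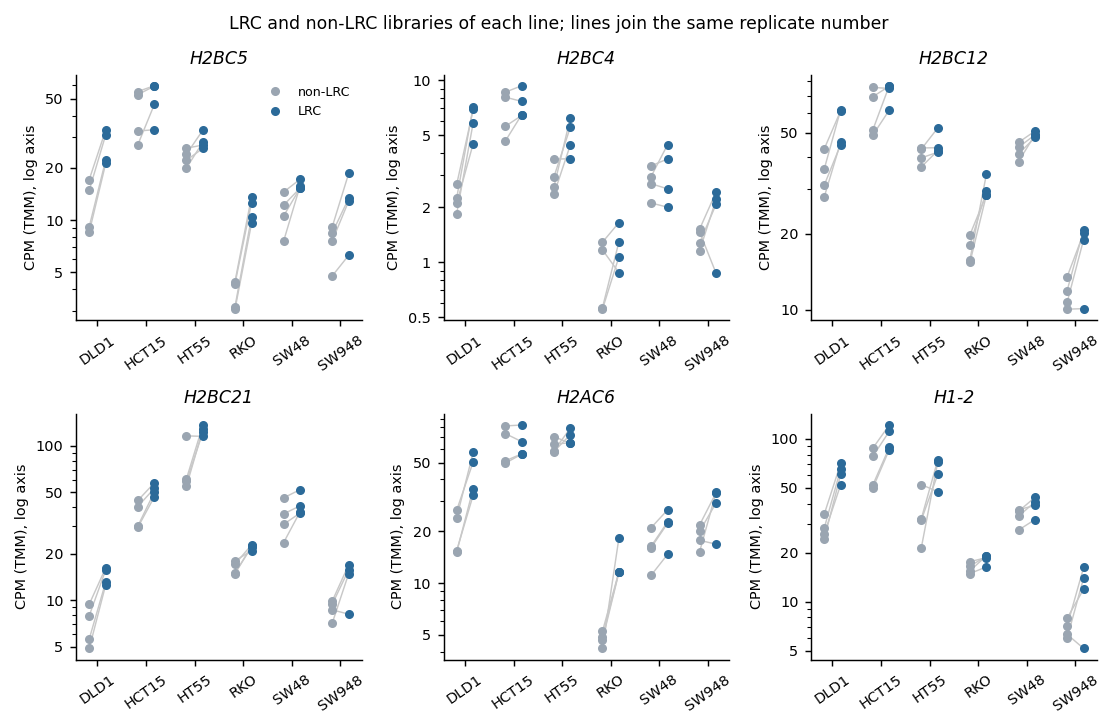
CPM (TMM-scaled, log axis) of the 6 members that were measured in each line, with non-LRC libraries in grey, LRC libraries in blue and a line joining libraries of the same replicate number. All DLD1 pairs rise, whereas the HCT15, SW48 and HT55 groups overlap for most genes; the low LRC point in SW948 is replicate 4.

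H2BC5 was the member with the largest difference across the lines, with a log2 fold change of 0.71 ± 0.12 (SE), a 1.63-fold difference. In DLD1 it measured 22.3, 21.3, 33.1 and 31.0 CPM in LRCs and 9.16, 8.55, 17.1 and 14.9 CPM in non-LRCs. In RKO it measured 12.6, 10.4, 9.57 and 13.6 CPM in LRCs and 4.32, 3.18, 3.08 and 4.43 CPM in non-LRCs. Both lines had groups that did not overlap, with 2.19-fold and 3.02-fold differences. In SW48 the LRCs held 15.3 to 17.2 CPM against 7.56 to 14.5 CPM, which also did not overlap, and the smallest difference was that of HCT15 (log2 0.25 ± 0.24). In SW948 the LRCs measured 18.6, 13.4, 12.9 and 6.28 CPM and the non-LRCs 9.13, 8.44, 7.59 and 4.77 CPM, so only LRC replicate 4 fell among the non-LRCs. All 24 same-numbered pairs of H2BC5 were higher in LRCs.

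The other H2B genes, which encode near-identical proteins, differed in their order of lines. H2BC12 had a log2 fold change of 0.43 ± 0.07 across the lines, from 0.15 ± 0.10 in HT55 to 0.78 ± 0.10 in RKO, where LRCs measured 34.4, 28.5, 28.6 and 29.5 CPM and non-LRCs 15.8, 15.4, 19.8 and 18.04 CPM. Most of its sequence windows are shared with other genes, as given above. H2BC21 had a log2 fold change of 0.61 ± 0.09, and in DLD1 it measured 13.1, 12.6, 16.2 and 15.7 CPM in LRCs and 5.603, 4.87, 9.41 and 7.93 CPM in non-LRCs. In HT55 it measured 128, 115, 123 and 136 CPM in LRCs and 54.5, 116, 58.7 and 60.9 CPM in non-LRCs. The 116 CPM belonged to non-LRC replicate 2, the single library by which the HT55 groups overlapped, and without the doubted libraries the HT55 log2 fold change moved from 0.79 ± 0.21 to 1.16 ± 0.09. H2BC4, the H2B gene with the fewest reads, had 5.85, 4.49, 6.91 and 7.15 CPM in DLD1 LRCs and 1.85, 2.10, 2.68 and 2.25 CPM in DLD1 non-LRCs, a log2 fold change of 1.46 ± 0.19. In HT55 the groups were apart only by 3.70 against 3.69 CPM, both in replicate 2, and in RKO it stayed near 1 CPM in both populations with a log2 fold change of 0.41 ± 0.34.

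H2AC6, the H2A gene that shares its start region with H2BC4, differed most in RKO, with 18.3, 11.6, 11.6 and 11.6 CPM in LRCs and 4.17, 4.67, 4.89 and 5.24 CPM in non-LRCs, a 2.72-fold difference. In DLD1 it measured 32.4, 35.3, 50.5 and 57.3 CPM in LRCs and 15.4, 15.1, 26.5 and 23.95 CPM in non-LRCs. Both lines had groups that did not overlap. In HCT15 the groups lay on top of each other, at 65.2 ± 12.5 CPM and 64.01 ± 16.1 CPM (SD, n = 4 each).

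The linker histone gene H1-2 had a different order of lines. It had its largest difference in DLD1, with 60.4, 52.2, 70.5 and 65.2 CPM in LRCs and 24.1, 25.97, 34.3 and 28.2 CPM in non-LRCs (log2 1.15 ± 0.12), and its smallest in RKO, with 19.1, 16.4, 19.1 and 18.6 CPM in LRCs and 15.5, 14.9, 16.5 and 17.6 CPM in non-LRCs (log2 0.15 ± 0.10). RKO was thus the line with the largest differences for H2BC5, H2BC12 and H2AC6 and the smallest for H1-2. In SW948 LRCs H1-2 measured 13.995, 11.9 and 16.2 CPM and, in replicate 4, 5.16 CPM, below all 4 non-LRC libraries at 5.96 to 7.91 CPM. In HT55 it measured 72.5, 47.3, 74.3 and 60.6 CPM in LRCs and 21.5, 52.3, 32.3 and 31.8 CPM in non-LRCs, again with replicate 2 as the overlap. Without the 5 doubted libraries the log2 fold change moved from 0.80 ± 0.27 to 1.06 ± 0.14 in SW948 and from 0.89 ± 0.23 to 1.29 ± 0.14 in HT55, while across the 6 lines it was 0.64 ± 0.10 with them and 0.74 ± 0.09 without. Over the 6 lines the other members also moved little when these libraries were left out, from 0.71 to 0.76 in H2BC5, 0.58 to 0.67 in H2BC4, 0.43 to 0.47 in H2BC12, 0.61 to 0.69 in H2BC21 and 0.58 to 0.62 in H2AC6.

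H2AJ set itself apart from the other members. It was measured only in HT55, SW48 and SW948, where the LRC against non-LRC log2 differences were 0.15 ± 0.09, 0.04 ± 0.13 and 0.01 ± 0.08, and the LRC library was the higher one in 8 of 12 same-numbered pairs. In HT55 it measured 131, 129, 145 and 139 CPM in LRCs and 103, 127, 141 and 120 CPM in non-LRCs, which overlap.

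Other histone and histone-related genes, from lists by function, were tested in the same libraries. These lists, too, were chosen with earlier results of these data known. In the clustered core histone list 24 of 58 genes were matched by identifier and the other 34 were not analysed here; 10 of the 24 passed the filter on low counts, and 9 of these 10 rose in LRCs across the 6 lines, none fell, and the median log2 fold change was 0.50. Over all 16603 genes tested 12.2% rose and 10.7% fell, with a median of 0.01. H4C8, which encodes H4, rose most (log2 1.07 ± 0.16, adjusted p = 3.45e-06) and was higher in 6 of 6 lines. H2BC11, another H2B gene, rose by 0.57 ± 0.10 (adjusted p = 6.59e-05, higher in 5 of 5 lines in which it was measured), and H2AC18, an H2A gene with a near-identical neighboring copy, by 0.91 ± 0.18 (adjusted p = 0.000257, 3 of 3 lines). The gene that did not pass was H2BC18, at 0.53 ± 0.22 (adjusted p = 0.0747).

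Replacement core variants did not share this direction. Of 9 replacement core variants 4 fell in LRCs and none rose (median -0.16): H3-3A, which encodes H3.3 (-0.23 ± 0.04, adjusted p = 5.21e-05), MACROH2A1 (-0.14 ± 0.03, adjusted p = 0.000624), H2AZ2 (-0.19 ± 0.05, adjusted p = 0.00792) and H2AZ1. The list of other linker histone genes was not divided by expression in or outside S phase. In it H1-10 fell (-0.17 ± 0.06, adjusted p = 0.0360), whereas H1-4 had -0.21 ± 0.18 (adjusted p = 0.454) and was higher in 1 of 5 lines. Without the 5 doubted libraries H1-10 did not pass (-0.16, adjusted p = 0.0703), and the counts of the core histone lists were the same: 9 of 10 clustered genes higher and 4 of 9 variants lower.

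**Figure D2:**
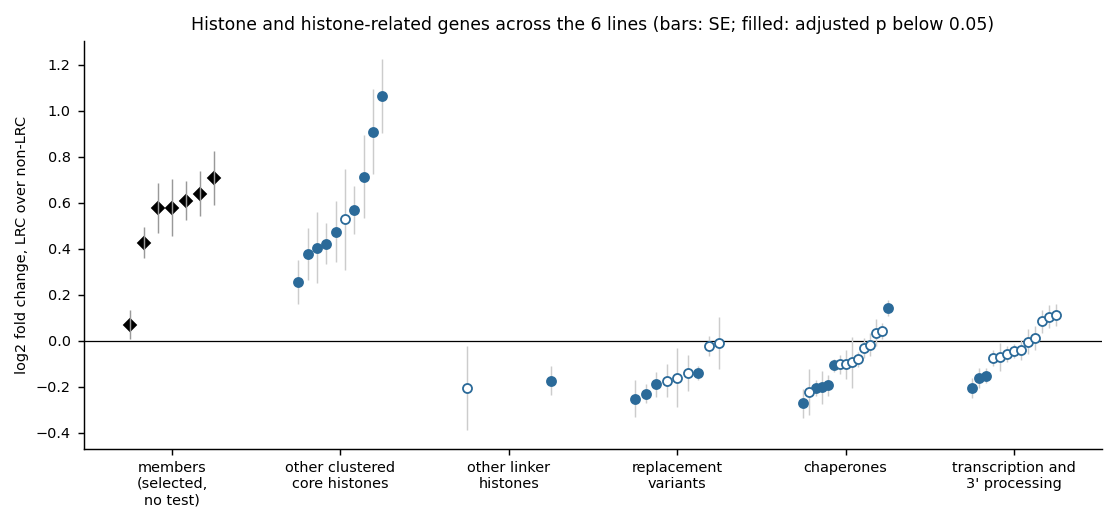
Log2 fold change of LRCs over non-LRCs across the 6 lines for each plotted gene of the lists, with SE bars; filled points passed an adjusted p of 0.05 in edgeR's test and black diamonds are the 7 members, which were chosen with this contrast in view and were not tested. The clustered core histones lie above 0, between 0.26 and 1.07, and the replacement variants lie below it.

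Genes that make and carry histone mRNA or protein moved little. Of 13 genes for transcription and 3′ processing of histone mRNA 3 fell and none rose (median -0.05), namely CSTF2 and SYMPK, subunits of the machinery that cleaves mRNA 3′ ends (-0.21 ± 0.04, adjusted p = 0.000261, and -0.15 ± 0.03, adjusted p = 0.000274, each lower in 6 of 6 lines), and MIF4GD, a partner of the stem-loop binding protein (-0.16 ± 0.05, adjusted p = 0.00687). Of 15 histone chaperones 5 fell and 1 rose (median -0.10), led by SSRP1, a subunit of FACT (-0.21 ± 0.03, adjusted p = 1.07e-05), HIRA, which deposits H3.3 (-0.19 ± 0.04, adjusted p = 0.00107), and NASP, which binds free H3 and H4 and is also an S-phase gene (-0.27 ± 0.06, adjusted p = 0.00108). Of 42 S-phase genes 19 fell and none rose (median -0.23), including CDCA7, UNG and POLA1. The S-phase medians differed in sign among lines, with RKO at -0.69, DLD1 at -0.50, SW48 at -0.27, SW948 at -0.02, HT55 at 0.04 and HCT15 at 0.13, while the medians of the clustered histone genes were above 0 in all 6, between 0.33 and 0.87. In HCT15 the mean of the S-phase list was higher in the LRC library of all 4 same-numbered pairs. Its part in the histone values was not tested.

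These lists passed the test in some lines only. In RKO 23 of 44 genes of the 5 histone lists passed, of which 19 fell, where 41.5% of all genes passed; 8 of 8 replacement variants fell, and 34 of 42 S-phase genes. In DLD1 14 of 46 passed and 12 of these fell, where 14.6% of all genes passed, with 36 of 42 S-phase genes lower. H4C8 rose in both (1.45 ± 0.30 in RKO, adjusted p = 0.00112, and 1.29 ± 0.34 in DLD1, adjusted p = 0.0282), H2AC11, an H2A gene, in RKO (1.09 ± 0.19, adjusted p = 0.000298) and H3C4, an H3 gene, in DLD1 (2.10 ± 0.42, adjusted p = 0.00906). In HCT15 and SW48 1 gene passed in each, where 0.977% and 0.796% of all genes passed, and in HT55 and SW948 none did in edgeR (0.0% of all genes in either line), with 2 and 11 genes at an unadjusted p below 0.05 and 0 and 1 in DESeq2. In the lines whose same-numbered libraries moved together, the fit with the replicate number as a block raised these counts to 24 of 46 in DLD1 (33.8% of all genes passed), 12 of 50 in HCT15 (21.3%; 10 of the 12 were higher) and 13 of 48 in SW48 (9.69%), and left HT55 at 0, as for all genes (0.0%). In DLD1 3 genes passed without the libraries numbered 3 and 2 without those numbered 4, and the HCT15 gene did not pass once any replicate number was left out; in SW948 10 passed without LRC replicate 4.

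Time in spheroid culture was tested in the unsorted DLD1 controls, libraries that the LRC contrast does not use. The members were chosen with earlier results of these data known, and the controls are part of these data. Without dye, 5 of the 6 members that were measured rose between day 1 and day 5 and none fell, where 12.4% of 14518 genes rose; the median log2 change of the 6 was 1.26, against 0.04 over all genes. In bulk libraries more cells that express a gene and more RNA per cell cannot be told apart.

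H1-2 had the smallest adjusted p. It measured 18.5, 18.5, 12.6 and 45.0 CPM on day 1 and 72.3, 65.3, 52.7 and 54.8 CPM on day 5, a log2 change of 1.37 ± 0.28 (adjusted p = 0.00734). H2BC5 measured 11.9, 9.90, 7.95 and 32.0 CPM on day 1 and 66.0, 43.4, 35.1 and 35.3 CPM on day 5 (1.53 ± 0.42, adjusted p = 0.0192). The groups of these 2 of 6 genes did not overlap, as for 8.13% of all genes, although the last day 1 value came from the library labelled unlabeled day 1 replicate 4, which lay near the day 5 libraries for each member. H2BC21 measured 8.75, 8.78, 7.37 and 28.2 CPM and then 33.9, 31.6, 26.8 and 26.7 CPM (1.15 ± 0.32, adjusted p = 0.0188). H2AC6 measured 16.4, 16.7, 11.3 and 56.5 CPM and then 99.2, 59.6, 55.7 and 47.8 CPM (1.37 ± 0.40, adjusted p = 0.0225). H2BC12 measured 27.3, 24.7, 20.6 and 56.9 CPM and then 86.6, 75.1, 60.5 and 52.2 CPM (1.07 ± 0.36, adjusted p = 0.0389). For these 3 genes replicate 4 was the single day 1 value inside the day 5 range. H2BC4 measured 2.40, 1.74, 1.29 and 6.03 CPM and then 5.84, 4.37, 6.45 and 4.54 CPM, and did not pass (0.87 ± 0.38, adjusted p = 0.0962).

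With that library left out all 6 members rose, where 19.2% of all genes did, and in all 6 every day 5 library lay above every day 1 library, as in 26.5% of all genes. The changes were then larger, at 2.10 ± 0.37 in H2BC5 (adjusted p = 0.000399), 2.08 ± 0.28 in H2AC6 (adjusted p = 4.37e-05), 1.82 ± 0.17 in H1-2 (adjusted p = 4.39e-06), 1.77 ± 0.16 in H2BC21 (adjusted p = 3.95e-06), 1.47 ± 0.30 in H2BC4 (adjusted p = 0.00122) and 1.43 ± 0.34 in H2BC12 (adjusted p = 0.0032). These calls depended on that library: without the libraries numbered 1, without those numbered 2 or without those numbered 3, which leaves it among 3 day 1 libraries, none of the 6 passed and neither did any of the 14254, 14310 and 14238 genes tested, with members' log2 changes of 0.49 to 1.39. With only the libraries numbered 3 and 4 of the controls none of the 6 passed (0.52 to 0.88), nor any of all 13916 genes. With only those numbered 1 and 2 all 6 did, where 7915 of 13697 genes passed, 3674 of them higher on day 5.

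**Figure D3:**
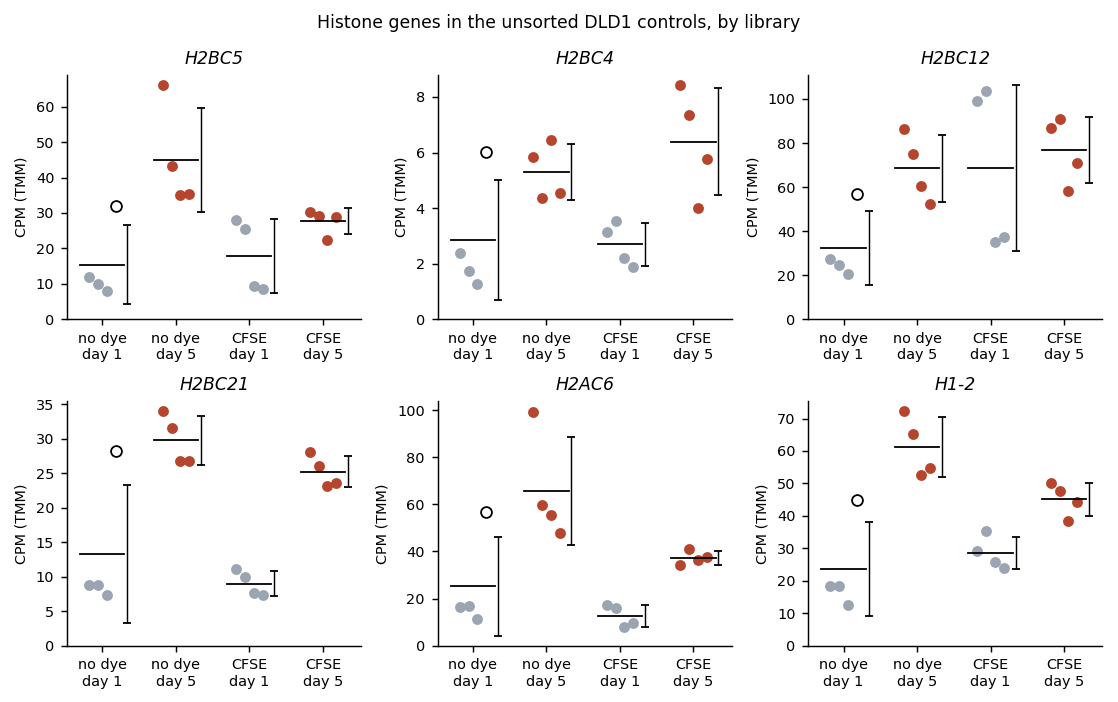
CPM (TMM-scaled) of 6 histone genes in each unsorted DLD1 control library, with day 1 in grey and day 5 in red; horizontal bars give the mean and the vertical bar beside each group its SD (n = 4). The open circle is the library labelled unlabeled day 1 replicate 4, which lies far above the other unlabeled day 1 libraries in each panel, and CFSE day 1 splits into 2 high and 2 low libraries for H2BC5 and H2BC12.

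With CFSE, 3 of the 6 rose between day 1 and day 5 and none fell, where 20.2% of all genes rose. H2BC21 measured 11.1, 9.96, 7.60 and 7.30 CPM on day 1 and 28.1, 26.1, 23.1 and 23.6 CPM on day 5 (1.45 ± 0.33, adjusted p = 0.00285). H2AC6 measured 17.4, 16.1, 7.86 and 9.83 CPM and then 34.04, 41.1, 36.4 and 37.6 CPM (1.499 ± 0.41, adjusted p = 0.00839). H2BC4 measured 3.13, 3.54, 2.21 and 1.90 CPM and then 8.42, 7.35, 4.02 and 5.77 CPM (1.20 ± 0.38, adjusted p = 0.0204). The groups of these 3 genes did not overlap, as for 24.5% of all genes in this direction, nor did those of H1-2, which had 28.5 ± 4.99 and 45.2 ± 5.08 CPM (SD, n = 4 each) but missed the threshold (0.62 ± 0.28, adjusted p = 0.0824); it passed without the doubted unlabeled library, which shares the fit (0.60 ± 0.15, adjusted p = 0.00446).

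The remaining H2B genes were split by replicate number on day 1 with CFSE. H2BC5 measured 27.9, 25.6, 9.35 and 8.57 CPM on day 1 and 30.4, 29.1, 22.5 and 29.0 CPM on day 5 (0.59 ± 0.42, adjusted p = 0.275). H2BC12 measured 99.3, 104, 34.9 and 37.2 CPM and then 86.7, 90.9, 58.4 and 70.8 CPM (0.11 ± 0.35, adjusted p = 0.828). For both genes replicates 1 and 2 of CFSE day 1 were at or near the day 5 level and replicates 3 and 4 were not. With replicates 1 and 2 alone the time change of H2BC12 was -0.28, and with replicates 3 and 4 alone it was 0.74.

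The time change did not pass a test of difference between the dye arms. None of the 6 members did, where 0.999% of all genes did, and none had an unadjusted p below 0.05 in edgeR or passed in DESeq2; the differences, time with dye minus time without, ranged from -0.97 to 0.33 with adjusted p from 0.343 to 0.927. Without the doubted library H1-2 passed, with a smaller rise in the presence of dye (-1.22, adjusted p = 0.00537).

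The dye itself was compared on each day. On day 1 H2BC12 was higher with CFSE (1.12 ± 0.36, adjusted p = 0.0349), 1 of 6 members, where 9.73% of all genes were higher. Replicates 1 and 2 of CFSE day 1, at 99.3 and 104 CPM, were the high ones, and with replicates 3 and 4 alone, which keep the doubted unlabeled library at 56.9 CPM, the difference was -0.06. Without that library all 4 CFSE values lay above the unlabeled ones (1.49 ± 0.34, adjusted p = 0.00985). The other 5 ranged from -0.95 in H2AC6 (adjusted p = 0.0965) to 0.30 in H1-2 (adjusted p = 0.468), and without the doubted library H1-2 also passed (0.78 ± 0.17, adjusted p = 0.00804), with groups that did not overlap, as for 15.3% of all genes in this direction. Leaving that library out also moved H2AC6 to -0.22 and H2BC5 from 0.23 to 0.83, neither of which passed. On day 5 none of the 6 passed in either direction, where 5.13% of all genes did, and none did at an unadjusted p below 0.05 or in DESeq2. H2BC5, H2AC6 and H1-2 were lower in all 4 CFSE libraries than in all 4 unlabeled ones, as were 10.3% of all genes, for example H2AC6 with 34.04 to 41.1 CPM against 47.8 to 99.2 CPM (-0.82 ± 0.39, adjusted p = 0.206), which passed when the doubted library was left out of the fit (-0.81 ± 0.24, adjusted p = 0.0326).

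S-phase genes were followed over the same times in the controls. In unlabeled cells 29 of 42 S-phase genes fell by day 5 and none rose (median -0.60), where 13.1% of all genes fell, including CDC45 (-1.38 ± 0.28, adjusted p = 0.00734), CLSPN and NASP. With CFSE 11 of 42 rose, where 20.2% of all genes rose, and 1 fell, with a median of 0.13. In the same arm 3 members rose. The mean log2(CPM + 1) of the S-phase list was 6.20 to 6.30 in unlabeled day 1 replicates 1 to 3, 5.50 in replicate 4, 5.39 to 5.77 in unlabeled day 5, 5.93 to 6.14 in CFSE day 1 and 6.09 to 6.42 in CFSE day 5. Among the members, H2BC21 and H2AC6 passed for time in both arms, H2BC5, H2BC12 and H1-2 only without dye and H2BC4 only with it. The part of the S-phase list in the members' values was not tested. Reads outside annotated genes were 8.96% to 13.6% of reads on unlabeled day 1 and 12.2% to 14.8% on CFSE day 1, against 5.19% to 8.35% on day 5, and the part of this share was not tested either.

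**Figure D4:**
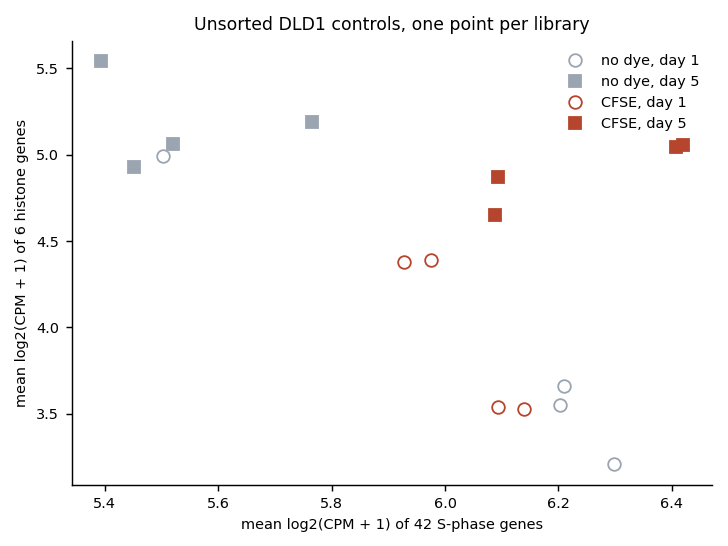
Each point is a DLD1 control library, placed by the mean log2(CPM + 1) of 42 S-phase genes (horizontal) and of the 6 histone genes other than H2AJ (vertical). The day 5 libraries lie high on the vertical axis, between 4.65 and 5.54, at S-phase values from 5.39 to 6.42; the open grey point among them is the library labelled unlabeled day 1 replicate 4.

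Other histone genes were followed over time in both dye arms. Of 10 other clustered core histones 1 rose in unlabeled cells, where 12.4% of all genes rose. It was H2AC25, an H2A gene outside the main cluster (1.07 ± 0.35, adjusted p = 0.0363). With CFSE 2 of the 10 rose, where 20.2% of all genes rose. They were H2AC11 (1.16 ± 0.30, adjusted p = 0.00612) and H2AC13 (1.81 ± 0.44, adjusted p = 0.00453). None fell in either arm, and both counts are near the shares of all genes. In unlabeled cells H4C16, an H4 gene, had -0.94 ± 0.36 (adjusted p = 0.0607) and H2AC13 1.08 ± 0.42 (adjusted p = 0.0642). H4C8, which rose most in LRCs, had -0.58 ± 0.51 (adjusted p = 0.409) and 0.14 ± 0.52 (adjusted p = 0.851) for time without and with dye. Neither change passed, and SEs of this size do not settle whether H4C8 rose with time. Of the linker histones, H1-4 had -0.63 ± 0.56 (adjusted p = 0.417) and H1-10 0.18 ± 0.18 (adjusted p = 0.458) for time without dye. Of 9 replacement variants H3-3A rose in unlabeled cells (0.46 ± 0.12, adjusted p = 0.0138); MACROH2A2 had 0.28 ± 0.12 (adjusted p = 0.0878) and CENPA, the centromeric H3, -0.32 ± 0.14 (adjusted p = 0.0931). With CFSE 6 of these 9 variants rose and 1 fell, with a median of 0.49. No test compared the lists with the members.

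Histone supply genes that passed for time in unlabeled cells fell, where 13.1% of all genes fell. No gene passed for this contrast once replicate number 1, 2 or 3 was left out. Of 15 chaperones 5 fell and none rose, led by NASP (-0.81 ± 0.15, adjusted p = 0.00564), HJURP, which loads CENPA (-0.99 ± 0.20, adjusted p = 0.00688), and CHAF1A, a subunit of the replication-coupled chaperone CAF-1 (-0.99 ± 0.22, adjusted p = 0.00921). Of 13 transcription and processing genes CASP8AP2, which encodes the processing factor FLASH (-0.70 ± 0.16, adjusted p = 0.00881), and COIL, which encodes coilin (-0.35 ± 0.11, adjusted p = 0.0365), fell, a share near that of all genes. LSM11, a protein of the U7 snRNP, had -0.46 ± 0.19 (adjusted p = 0.0852). Among 9 epithelial markers measured, 5 rose in unlabeled cells, where 12.4% of all genes rose. They included KRT19 (0.73 ± 0.14, adjusted p = 0.00622), CDH1 (0.85 ± 0.20, adjusted p = 0.0104) and CDX2 (1.36 ± 0.35, adjusted p = 0.0145). Across the lines CEACAM5 rose in LRCs (0.91 ± 0.19, adjusted p = 0.000332), VIL1 fell (-0.30 ± 0.10, adjusted p = 0.0241) and KRT18 had 0.16 ± 0.07 (adjusted p = 0.0733). Of the non-epithelial markers that passed the filter none passed the test in LRCs (VWF 0.36 ± 0.15, COL1A1 0.30 ± 0.15 and PDGFRB 0.08 ± 0.17), and with time without dye COL1A1 fell (-0.94 ± 0.30, adjusted p = 0.0339) while PDGFRB had 0.95 ± 0.52 and LYZ -0.55 ± 0.31. Without the 5 doubted sorted libraries VWF (0.46, adjusted p = 0.0179) and KRT18 (0.19, adjusted p = 0.0181) rose in LRCs. Without the doubted control library H2AC13 (1.63, adjusted p = 0.0038) and PDGFRB (1.55, adjusted p = 0.0234) rose with time in unlabeled cells, and CENPA (-0.50, adjusted p = 0.00453) and LSM11 (-0.66, adjusted p = 0.00947) fell. The part of the marker genes in the members' values was not tested.

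Cycling cells of the 6 lines differed in the level of each member. All 7 passed the test over the 6 lines of non-LRCs, as did 98.3% of the 15779 genes tested, so only the order of the lines is described. HCT15 had the highest mean for H2BC5 (41.9 ± 14.1 CPM), H2BC4 (6.72 ± 1.92 CPM), H2BC12 (61.4 ± 13.3 CPM), H2AC6 (64.01 ± 16.1 CPM) and H1-2 (66.7 ± 18.8 CPM; SD, n = 4 each), with replicates 1 and 2 below replicates 3 and 4 for each. Its lead over the next line passed for H2BC5, H2BC4, H2BC12 and H1-2 (adjusted p = 0.00186, 3.67e-05, 0.000842 and 0.000122) but not for H2AC6, where HT55 had 62.8 ± 5.97 CPM (adjusted p = 0.997).

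At the low end RKO had the smallest means for H2BC5, with 3.75 ± 0.723 CPM, H2AC6, with 4.74 ± 0.45 CPM, and H2BC4, with 0.893 ± 0.391 CPM. HCT15 was thus 11.2-fold above RKO for H2BC5 and 13.5-fold for H2AC6. SW948 was lowest for H2BC12, with 11.5 ± 1.52 CPM, and for H1-2, with 6.81 ± 0.868 CPM. RKO differed from the line above it for H2BC5 and H2AC6 (adjusted p = 0.00275 and 8.68e-08) but not for H2BC4 (adjusted p = 0.0676). H2BC21 had another order, with HT55 highest at 72.5 ± 29.0 CPM and DLD1 lowest at 6.95 ± 2.10 CPM, which did not pass a test against SW948 at 8.74 ± 1.21 CPM (adjusted p = 0.259). Middle neighbors often did not pass, such as HT55 and SW48 for H2BC4 (adjusted p = 0.743), H2BC12 (0.935) and H1-2 (0.700), and DLD1 and SW48 for H2BC5 (0.585).

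H2AJ was present in 3 lines and near 0 in the other 3. In non-LRCs it measured 103, 127, 141 and 120 CPM in HT55, 64.3, 61.9, 57.4 and 61.6 CPM in SW948 and 18.1, 26.8, 22.1 and 23.7 CPM in SW48. These lines did not overlap, and HT55 exceeded SW948 by 1.03 ± 0.12 on the log2 scale (adjusted p = 4.48e-08) and SW948 exceeded SW48 by 1.45 ± 0.12 (adjusted p = 2.97e-10). DLD1 non-LRCs had 0 counts in all 4 libraries, and a floor of 0.0512 CPM was set for them, taking 3 counts over the group. HT55 was 2389-fold above that floor. The upper end of the 95% exact counting interval for DLD1 was higher, at 0.063 CPM. RKO had 1 count and HCT15 3 counts over 4 non-LRC libraries each, and the ratio of HT55 to HCT15 was 2658 (95% exact counting interval 909 to 12890). The low value was kept in LRCs, with 2 counts in DLD1, 1 in RKO and 3 in HCT15, and in the 16 DLD1 controls, with 0 to 6 counts per group, so H2AJ could not be tested for time or dye. Intervals and limits cover counting error only. HT55 and SW948 form the CCS1 subtype of the study and SW48 shares CCS2 with RKO, so the presence of H2AJ did not follow that grouping in full.

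**Figure D5:**
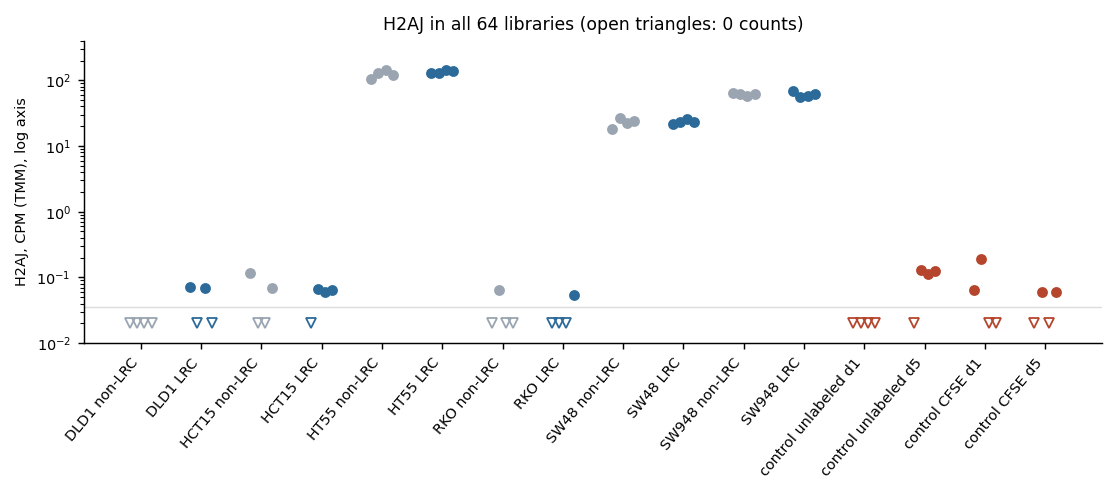
H2AJ in CPM (TMM-scaled, log axis) in all 64 libraries by group, with non-LRC in grey, LRC in blue and unsorted DLD1 controls in red; open triangles at the foot of the axis are libraries with 0 counts. HT55, SW48 and SW948 lie between 18.1 and 145 CPM and all other libraries below 0.2 CPM.

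The 6 members other than H2AJ moved together between libraries. With log2 CPM centred on each line's sorted libraries and on the controls, the Pearson r between members over 64 libraries ranged from 0.67 (H2BC12 and H2BC21) to 0.90 (H2BC21 and H1-2, and H2BC5 and H2AC6 at 0.90), and between H2AJ and the others from 0.19 to 0.37. The divergent neighbors H2BC4 and H2AC6 had r = 0.75, which was not the highest of either gene. Among 11748 genes, the 3 most like H2BC5 were H2AC6, TPRG1L and H2BC12 (r = 0.90, 0.86 and 0.85), and those most like H2AC6 were H2BC5, PSAP and TPRG1L (0.90, 0.89 and 0.88). For H2BC21 they were H1-2, GDE1 and APLP2 (0.90, 0.88 and 0.87), for H1-2 H2BC21, RAB11FIP5 and GDE1 (0.90, 0.87 and 0.83), for H2BC12 CD59, ATG13 and H2BC5 (0.86, 0.85 and 0.85) and for H2BC4 H2BC21, H1-2 and H2BC5 (0.84, 0.83 and 0.77). For H2AJ, near 0 in 40 of the libraries, they were SLC35E4, PI4KB and TNNC1 (0.61, 0.60 and 0.58). The libraries share population, time and depth differences, and no test was made of these values.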

How the data were processed

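RNA of 64 libraries (RNAeasy Micro, TruSeq, single-end 50-base HiSeq reads) was deposited as HTSeq counts per Ensembl gene. Per the labels the authors aligned reads to hg19 and the processing notes name TopHat, HTSeq and DESeq; versions, annotation release, strand setting and poly(A) selection are not given in the sources used here. The deposited counts are whole reads per gene, not normalized; reads aligned to several places (20.0% to 31.8% of reads) and the 5 summary rows of each table were left out.

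Members and lists were chosen with earlier results of these data known. Symbols came from GENCODE v44lift37 (47098 of 54127 identifiers matched). Genes reaching 10 counts in 4 or more of the fitted libraries were tested with edgeR 4.0.16 (TMM, quasi-likelihood F test, two-sided, Benjamini-Hochberg, threshold 0.05, R 4.3.3): 16 controls by dye and day, 24 non-LRC libraries by line, and 48 sorted libraries by line and population or 8 of a line. SE is the log2 fold change divided by the square root of F. log2 CPM used a prior count of 2. DESeq2 1.42.0, other scaling, filters, fits and samples were the alternatives. The S-phase list came from Seurat 5.3.0. The method was tested on simulated data. Named were all 7 members, the 3 smallest p-values of each other list for LRC and for unlabeled time, and the 3 genes most like each member; 1 gene of these is not reported here, and further genes of a list (such as H2AC11, H3C4, H2AC13 and H2BC18) were named after their values were seen.

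Same-numbered libraries deviated together (every r above 0.1) in DLD1, HCT15, HT55 and SW48 (lowest r 0.255, 0.332, 0.221 and 0.187), not in RKO, SW948 or the controls (lowest r -0.09, -0.01 and -0.27). The closest of 96 pairs of libraries of a group had a mean chi-square of 2.19 per gene, above the sampling noise, so none was counted as a duplicate. In sorted DLD1 and HCT15 and the CFSE controls, libraries 1 and 2 were most alike, as were 3 and 4. For CFSE day 1 the chi-square was 5.94 and 4.09 inside these sets and at least 54.2 elsewhere. HCT15 non-LRCs had 17.8 and 6.5 inside and at least 23.6 elsewhere. No such sets held throughout in the unlabeled controls or the remaining lines. The tests treat the 4 libraries of a group as separate units, so p-values of groups with such sets may be too small. Depth is 12237225 to 20913455 reads on genes.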

Additional observations from a re-analysis of the deposited data

Results flagged for a closer look

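Of 102 combinations of a member and a group of 4 libraries, 9 held a library far from the other 3 by Dixon's criterion (gap over range above 0.829), where chance alone flags about 1 in 20. In the library labelled unlabeled day 1 replicate 4 H2BC5 was 32.0 CPM (others 7.95 to 11.9), H2BC21 28.2 CPM (7.37 to 8.78) and H2AC6 56.5 CPM (11.3 to 16.7). H2BC21 in HT55 non-LRC replicate 2 was 116 CPM (54.5 to 60.9). H2BC12 was 10.1 CPM in SW948 LRC replicate 4 (18.96 to 20.7), 61.6 CPM in HCT15 LRC replicate 1 (75.0 to 76.9), 52.4 CPM in HT55 LRC replicate 3 (41.97 to 43.7) and 34.4 CPM in RKO LRC replicate 1 (28.5 to 29.5). H2AC6 in RKO LRC replicate 1 was 18.3 CPM (11.6 to 11.6). The first 5 values belong to libraries whose nearest library carried another label.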

How the results depend on the processing

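Of 968 values recomputed under other processing settings that keep all replicates, 902 kept their direction and side of the threshold (or stayed within the spread), and no direction reversed; 22 calls of single genes were lost and 15 gained, and the counts of members and other histone genes that moved by over 1.5 times are as follows. Without TMM scaling H2BC12 did not pass for time without dye (0.938, adjusted p = 0.0541), which leaves 4 members. The cause was not tested unless fewer samples entered. Members rising with time without dye numbered 5: 1 in the 8 samples of the comparison alone, 0 with control replicates 3 and 4 alone, and 0 to 6 when a replicate number was left out. With dye they numbered 3: 5 with replicates 1 and 2 alone, 0 with 3 and 4 alone, 2 to 4 with a replicate left out. For dye on day 1 the count of 1 became 2 without the doubted library or without a filter, 3 and 0 with replicates 1 and 2 or 3 and 4 alone, 0 in the 8 samples and 0 to 3 with a replicate left out. For dye on day 5 the count of 0 became 1 without the doubted library, 4 with replicates 1 and 2, 2 in the 8 samples and 0 to 1 with a replicate left out. For time with dye minus time without, 0 became 1, 5 and 0 to 3 (doubted library out, replicates 1 and 2, a replicate left out). With replicates 1 and 2 alone, 7651 of all 13697 genes passed in either direction for time with dye. In the same fit 6688 passed for dye on day 1, 4273 for dye on day 5 and 4739 for the difference of time effects. With replicates 3 and 4 alone 1908 of 13916 passed for time with dye and 677 for dye on day 1.

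Without the doubted library the day 1 dye difference turned to 0.55 in H2BC4 and 0.10 in H2BC21, and time with minus without dye to -0.28 in H2BC4, -0.34 in H2BC21 and -0.59 in H2AC6. With replicates 1 and 2 alone the dye difference was 0.64 in H2BC4 and 0.23 in H2BC21, time with dye -0.28 in H2BC12, the difference of time effects -0.017 in H2BC4, -0.51 in H2BC21 and -1.07 in H2AC6, and time without dye -0.044 in H1-10. With replicates 3 and 4 alone the day 1 dye difference was -1.11 in H2BC5, -0.058 in H2BC12 and -0.17 in H1-2, that of day 5 -0.20 in H2BC4, the difference of time effects 0.64 in H2BC5 and 0.23 in H2BC12, and time without dye 0.067 in H1-4. Leaving out a single replicate number took time with dye in H2BC12 from -0.071 to 0.222, day 1 dye in H2BC5 from -0.163 to 1.117, in H2BC4 from -0.391 to 0.739 and in H2BC21 from -0.801 to 0.243, and the difference of time effects in H2BC4 from -0.511 to 0.780, in H2BC21 from -0.507 to 0.551 and in H2AC6 from -0.886 to 0.757. The choices of doubted libraries and of replicate pairs were made after seeing the data.

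Other histone genes passing across the lines numbered 23 (15 to 19 with a replicate left out). Per line, group means over 48 samples gave 6 (DLD1), 3 (HCT15), 2 (SW948) and 4 (SW48); DESeq2 gave 6 in HCT15, 3 in SW48 and 1 in SW948; no filter gave 3 in HCT15, 2 in SW48 and 2 in SW948; library size without TMM gave 0 in HCT15; without the doubted libraries 1 passed in HT55, 4 in SW48 and 10 in SW948. The replicate block gave 1 in SW948, 13 in SW48, 12 in HCT15 and 24 in DLD1, and of the single genes named KRT18 across the lines (0.165), and PDGFRB (1.106) and LSM11 (-0.472) for time without dye, passed with the block; it changed no call of a member in the controls. With a replicate left out the counts were 2 to 12 in DLD1, 0 to 0 in HCT15, 0 to 1 in HT55, 18 to 26 in RKO, 0 to 4 in SW48 and 0 to 5 in SW948. All 7 members differed between lines under every setting that tested them (7 to 7 with a replicate left out); with at least 10 counts required in every sample 5 were tested and differed. LRC log2 differences of members with a replicate left out were 0.66 to 0.74 in H2BC5, 0.54 to 0.67 in H2BC4, 0.38 to 0.46 in H2BC12, 0.57 to 0.65 in H2BC21, 0.53 to 0.61 in H2AC6, 0.56 to 0.72 in H1-2 and 0.02 to 0.13 in H2AJ, which group means moved to 0.42. Depth limits H2BC4 (7 to 144 reads) and H2AJ in 3 lines.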
